A study of Mus musculus with 8 samples.

Results

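The genes described here are 33 genes of G2 and mitosis, measured by RNA sequencing in the liver of mice given acetaminophen (APAP) with or without mesenchymal stromal cells (MSCs). They were chosen by name: a gene was taken if its Ensembl ID in the deposited table of 22183 genes mapped to 1 of the 33 symbols, and all 33 were found. The rule itself used no measured value, but the members were chosen with earlier results of these data known. Acetaminophen is a painkiller that injures hepatocytes at overdose, and MSCs are connective tissue progenitor cells that are tested as a treatment.

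The liver samples came from C57 mice in 3 groups. The CTRL group (2 samples) has control as its treatment label, but its protocol text is the one given for all 8 samples, which describes APAP injection. Each comparison with CTRL rests on the title and treatment label. The APAP_PBS group (3 samples) received 400 mg/kg APAP intraperitoneally with PBS, and the APAP_MSC group (3 samples) received the same dose and MSCs through the tail vein after 4 h. The shared text gives liver collection at 24 h after the model was made, with no separate time for CTRL. The labels give neither sex, age, the source or number of the MSCs, nor whether CTRL animals received PBS. They also leave out whether replicates were separate animals, and p-values therefore describe the spread of these samples alone, which could be technical.

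G2 is the gap between DNA replication and division, and mitosis is the division itself. Cyclin-dependent kinase 1 (Cdk1) with A and B cyclins starts mitosis, the spindle pulls the chromosomes apart, and a checkpoint delays separation until every chromosome is attached. Most hepatocytes of an adult liver are quiescent, and after tissue loss they can re-enter the cycle. The genes of this phase are transcribed together, through the transcription factors Foxm1 and B-Myb and the DREAM complex. Those factors act through a short promoter element called the cell cycle genes homology region (CHR). A second element of such promoters, the CCAAT box, is bound by the factor NF-Y.

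The promoters of the members are shown first because both elements were more frequent in them than in promoters at large. RefSeq windows of GRCm38.p6 (250 bases before to 50 bases after the start) were matched for 26 of the 33 members, giving 27 windows. Both strands were searched for TTTGAA or TTCGAA, the letters used here for the CHR, and for CCAAT. Matches of different motifs may share end bases, and each motif was counted on its own. The CHR letters were in 21 of the 27 windows (77.8%), against 19.2% of all 32851 windows of the same length. CCAAT was in 22 windows (81.5%), against 37.4% of all windows. Both were in 20 windows (74.1%), against 7.52% of all windows. Of the 26 members with a window, 19 held both, and Mad2l1, Melk, Birc5 and Nusap1 held neither. GGCGC, a form of the E2F motif, was in 17 windows (63.0%), against 36.9% of all. A match of letters is a description and does not show that a factor binds there.

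5 promoters are printed, for the genes on which the results turn. Mki67 (chr7:135716330-135716629, minus strand), Top2a (chr11:99024140-99024439, minus strand) and Cdk1 (chr10:69352863-69353162, minus strand) had their highest levels in the same library. Aurka (chr2:172370521-172370820, minus strand) had the smallest adjusted p among the members. Cenpa (chr5:30666636-30666935, plus strand) differed in the opposite direction from the others. Each is written 5′ to 3′ on the gene's strand, and capitals mark CHR and CCAAT matches on either strand.
Mki67: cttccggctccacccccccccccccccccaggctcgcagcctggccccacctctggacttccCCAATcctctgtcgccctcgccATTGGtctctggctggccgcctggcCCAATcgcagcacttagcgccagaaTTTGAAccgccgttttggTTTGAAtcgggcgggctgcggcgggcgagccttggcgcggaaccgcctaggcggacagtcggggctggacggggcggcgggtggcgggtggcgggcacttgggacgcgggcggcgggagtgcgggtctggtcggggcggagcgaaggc
Top2a: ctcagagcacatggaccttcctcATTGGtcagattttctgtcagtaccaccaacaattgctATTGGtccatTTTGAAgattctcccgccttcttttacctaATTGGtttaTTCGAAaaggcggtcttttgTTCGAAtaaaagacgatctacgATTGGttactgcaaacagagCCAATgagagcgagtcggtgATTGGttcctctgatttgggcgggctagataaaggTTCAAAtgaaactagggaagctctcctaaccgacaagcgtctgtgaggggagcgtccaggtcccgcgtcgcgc
Cdk1: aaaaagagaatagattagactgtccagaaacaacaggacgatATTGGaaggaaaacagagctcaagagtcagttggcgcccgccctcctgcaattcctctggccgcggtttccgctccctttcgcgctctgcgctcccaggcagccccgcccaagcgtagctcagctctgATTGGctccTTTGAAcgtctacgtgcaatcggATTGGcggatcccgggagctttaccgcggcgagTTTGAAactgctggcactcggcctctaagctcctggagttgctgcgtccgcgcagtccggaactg
Aurka: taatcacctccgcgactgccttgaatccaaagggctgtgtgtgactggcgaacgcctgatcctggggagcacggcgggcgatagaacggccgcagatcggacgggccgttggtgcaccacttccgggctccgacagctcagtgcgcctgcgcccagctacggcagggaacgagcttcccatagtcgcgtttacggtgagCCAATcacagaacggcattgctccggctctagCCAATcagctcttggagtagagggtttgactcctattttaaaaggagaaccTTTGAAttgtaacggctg
Cenpa: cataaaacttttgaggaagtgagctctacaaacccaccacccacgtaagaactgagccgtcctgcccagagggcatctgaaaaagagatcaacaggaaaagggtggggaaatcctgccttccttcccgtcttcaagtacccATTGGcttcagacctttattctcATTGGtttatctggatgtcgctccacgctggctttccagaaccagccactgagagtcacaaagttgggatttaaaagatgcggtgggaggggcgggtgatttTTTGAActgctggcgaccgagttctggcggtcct

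The promoters of Mki67 and Cdk1 each hold TTTGAA at 2 places upstream of the start. In Mki67 these begin at -116 and -98, and in Cdk1 at -71 and -15. Top2a has the most matches of the 5, with 4 of the CHR letters and 6 of CCAAT. In Aurka and Cenpa the only CHR match lies after the start, beginning at 33 and 17. Cenpa, whose levels differ from those of the rest, thus holds the same letters.

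**Figure D1:**
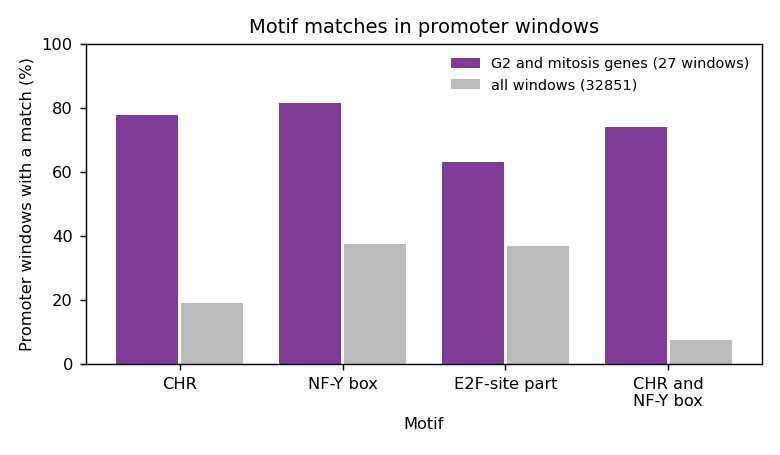
Share of promoter windows (percent, vertical axis) that hold the CHR, CCAAT (labelled NF-Y box), GGCGC (labelled E2F-site part) or both CHR and CCAAT, for the 27 windows of the members and for all 32851 RefSeq windows. The members' share was higher for each motif, and the gap was largest for CHR and CCAAT together (74.1% against 7.52%).

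All 33 members were at low levels in these livers. Levels between genes are compared in FPKM, which is scaled to gene length. 30 of the 33 had a mean below 1 FPKM over the 8 libraries, and the median of all detected genes was 2.23 FPKM. The highest members were Cenpa at 1.86 FPKM, the centromeric histone, Mad2l1 at 1.34 FPKM, a spindle checkpoint protein, and Cdk1 at 1.06 FPKM. The lowest were Cenpf at 0.0171 FPKM and Bub1 at 0.0175 FPKM, which both act at the kinetochore.

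A member was called near the detection limit in a group where every library held 3 or fewer counts. Libraries held 16261191 to 24516470 counts in all, so that 3 counts were 0.117 to 0.214 CPM. CPM here is a gene's count relative to the library total after TMM scaling. By this limit 6 members were near detection in CTRL (Pbk, Ube2c, Hmmr, Ttk, Cdc25c and Bub1). In APAP_PBS only Cdc25c was. In APAP_MSC there were 8 (Ncapg, Cenpe, Cenpf, Melk, Hmmr, Ttk, Cdc25c and Bub1). Cdc25c, the phosphatase that activates Cdk1, held 0 to 3 counts in all 8 libraries and was near the limit in all 3 groups. 12 members were above 3 counts in all 8 libraries, and 6 were above 10 counts in all 8. 10 members were at 0 in some library. Such a value allows a level up to the 3-count limit and is not shown to be absence.

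21 members passed the filter on low counts and entered the fit. Aurkb, Birc5, Cenpe and Foxm1 reached its minimum of 0.511 CPM only in APAP_PBS libraries, so their higher level there is part of why they were tested. Cdc20, Kif23, Tpx2 and Prc1 each reached it in 0 CTRL libraries and 1 APAP_MSC library, and otherwise in APAP_PBS. The same therefore holds for them. The 12 that were not tested are Ccnb1, Ccnb2, Cdc25c, Plk1, Bub1, Ttk, Cenpf, Ube2c, Pbk, Melk, Ncapg and Hmmr. The estimated counts of Ccna2, Kif20a, Prc1 and Ncapg were not whole in some libraries. Whether their reads were shared out with other genes was not tested. Each of these overlaps another annotated gene (Exosc9, Cdc23, Rccd1 and Lcorl), and the labels state no strand setting, so their values are uncertain. Foxm1, Cdc20, Ube2c, Nusap1 and Cdc25c also overlap other genes, and their counts were whole in every library.

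**Figure D2:**
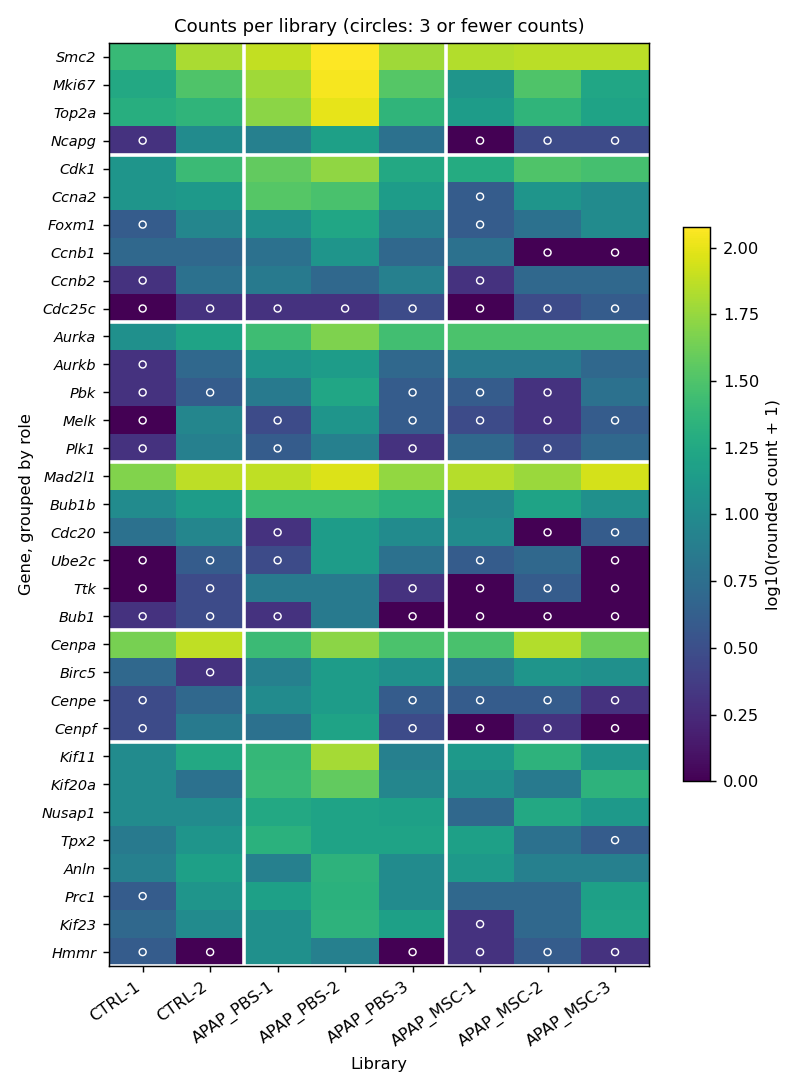
Rounded counts of the 33 members (rows, grouped by role) in the 8 libraries (columns), coloured on a log10(count + 1) scale, with circles at 3 or fewer counts. Most members sit at 10 or fewer counts outside APAP_PBS replicate 2, where 6 do.

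Summed over the 33 members, the level was highest in the APAP_PBS libraries. The sums were 19.1 and 22.6 CPM in CTRL, 34.6, 41.0 and 24.4 CPM in APAP_PBS, and 20.5, 20.0 and 17.0 CPM in APAP_MSC. The 3 APAP_PBS libraries all lay above the other 5, and replicate 3 lay close to CTRL replicate 2. Group means were 20.8 ± 2.46 CPM (SD, n = 2), 33.3 ± 8.37 (SD, n = 3) and 19.2 ± 1.90 (SD, n = 3). The exact Poisson 95% interval of APAP_PBS replicate 3 ran from 22.1 to 26.8 CPM and overlapped that of CTRL replicate 2, from 20.6 to 24.7 CPM. These intervals cover counting error only. Without APAP_PBS replicate 2 the mean of that group was 29.5 CPM. Without Mki67 and Top2a the group means were 18.3, 27.3 and 17.5 CPM. In bulk tissue, fewer cells in division and less RNA per dividing cell cannot be told apart.

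**Figure D3:**
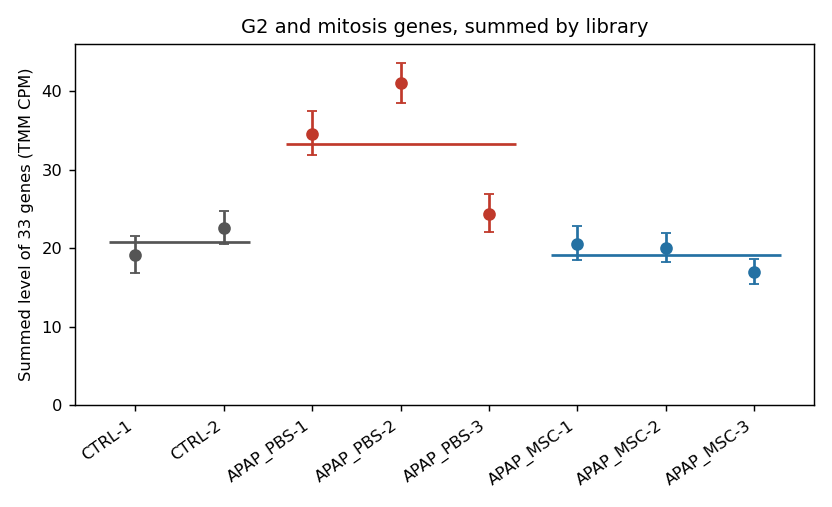
Summed level of the 33 members in each library (CPM, vertical axis), one point per library with its exact Poisson 95% interval, by group with the group mean. APAP_PBS spans 24.4 to 41.0 CPM, and the other 5 libraries lie between 17.0 and 22.6 CPM.

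Much of that spread within APAP_PBS was between its own libraries. APAP_PBS replicate 2 held the highest of the 8 values for 20 members (60.6%), against 8.6% of all detected genes. Replicate 1 held it for 8 members (24.2%, against 15.8%) and replicate 3 for 3 members (9.09%, against 10.2%). CTRL replicate 2 held the highest value of Cenpa and Plk1, and no other library held any.

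By role, the members of chromosome structure had the widest gap between groups in summed CPM. Mki67, the nuclear protein that coats mitotic chromosomes and marks cycling cells, Top2a, which untangles DNA, and the condensin subunits Smc2 and Ncapg summed to 4.34 and 5.92 CPM in CTRL. They summed to 10.9, 14.1 and 6.96 CPM in APAP_PBS, and to 5.36, 5.64 and 4.05 CPM in APAP_MSC. Every APAP_PBS library was above every other.

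The members of entry into mitosis (Cdk1, its cyclins Ccna2, Ccnb1 and Ccnb2, Cdc25c and Foxm1) summed to 2.14 and 2.58 CPM in CTRL. Their sums were 5.20, 4.72 and 2.92 CPM in APAP_PBS and 1.75, 2.37 and 2.06 CPM in APAP_MSC. The mitotic kinases Plk1, Aurka, Aurkb, Pbk and Melk summed to 0.925 and 1.74 CPM in CTRL, 2.71, 3.85 and 2.22 CPM in APAP_PBS, and 2.62, 1.79 and 1.79 CPM in APAP_MSC. In this role the APAP_MSC libraries overlapped those of APAP_PBS and lay above both CTRL libraries, by a small margin over CTRL replicate 2. Aurka, at 1.75, 1.34 and 1.17 CPM, made up most of each APAP_MSC sum. Plk1, Aurkb, Pbk and Melk each overlapped between APAP_MSC and CTRL.

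The spindle and cytokinesis members (the motors Kif11, Kif20a and Kif23, the spindle proteins Tpx2, Prc1, Nusap1 and Hmmr, and the contractile ring scaffold Anln) summed to 3.56 and 3.57 CPM in CTRL. They summed to 7.06, 8.16 and 4.44 CPM in APAP_PBS and 3.38, 2.997 and 3.27 CPM in APAP_MSC. The members of the spindle checkpoint and mitotic exit (Bub1, Bub1b, Ttk, Mad2l1, Cdc20 and Ube2c) spanned 3.53 to 6.33 CPM, with APAP_PBS at 5.20 CPM or more and APAP_MSC replicate 1 just below it at 5.19 CPM. The centromere and kinetochore members (Cenpa, Cenpe, Cenpf and Birc5) had no such order. They summed to 3.70 and 3.99 CPM in CTRL, 2.60, 3.81 and 2.63 CPM in APAP_PBS and 2.22, 3.67 and 1.98 CPM in APAP_MSC, and Cenpa made up most of each sum.

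**Figure D4:**
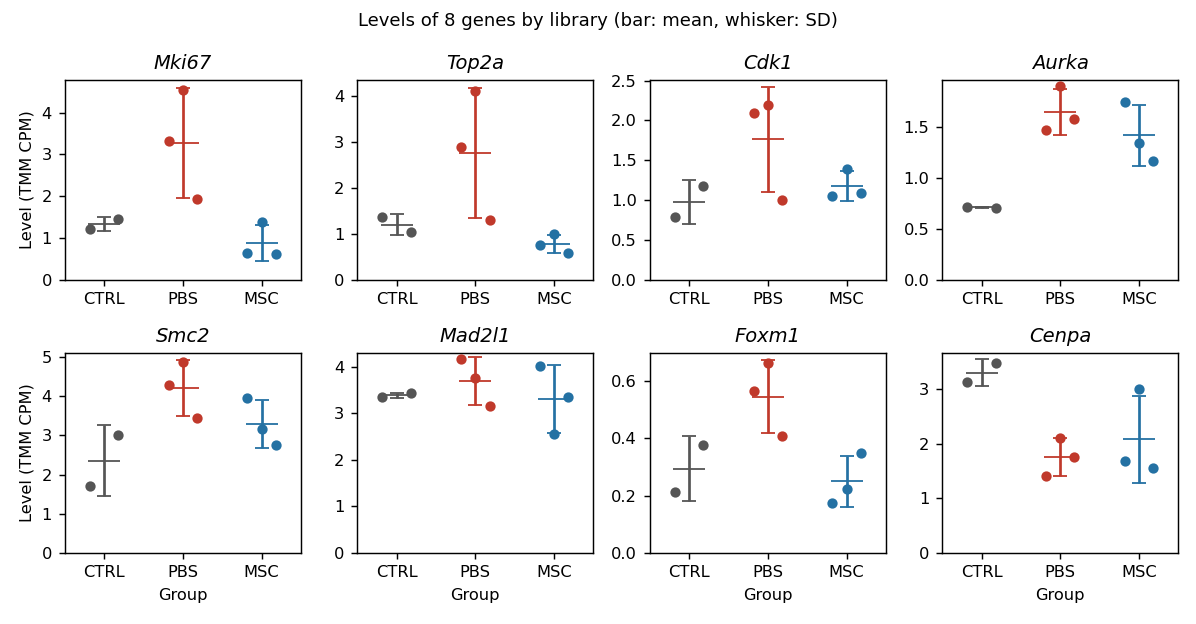
Level of the named members in each library (CPM, vertical axis), one point per library, with a bar at the group mean and whiskers of 1 SD, by group; PBS and MSC stand for APAP_PBS and APAP_MSC. Mki67 and Top2a are highest in APAP_PBS replicates 1 and 2, Aurka is lowest in CTRL, and Cenpa is highest in CTRL.

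The comparison of APAP_PBS with CTRL asks how the injured liver differed from control. Mean levels in CTRL and APAP_PBS were 1.33 and 3.27 CPM for Mki67, 1.19 and 2.76 CPM for Top2a, 0.708 and 1.65 CPM for Aurka and 3.30 and 1.76 CPM for the histone Cenpa, but no member passed the test. Among the 21 tested, 0 were higher and 0 lower at an adjusted p of 0.05 in edgeR's quasi-likelihood test, against 4.29% of 12722 genes higher and 5.97% lower (10.3% in either direction). At an unadjusted p under 0.05, 5 members were higher (Mki67, Top2a, Aurka, Birc5 and Smc2; 13.4% of all genes were) and 1 was lower (Cenpa; 13.4%). Of these, Birc5 passed the filter only through APAP_PBS. DESeq2 also called 0, beside 739 genes higher and 988 lower in all. Limma on log2(FPKM + 1) called 1 (Aurka), and edgeR with library size alone as scaling called 3 (Mki67, Aurka and Smc2). That last scaling moved the median of all genes from 0.03 to 0.27 on the log2 scale and the split of all calls from 546 higher and 760 lower to 1620 higher and 371 lower. In limma on log2(FPKM + 1) the median of all genes was 0.18, with 1188 higher and 326 lower. Without APAP_PBS replicate 2, 1 member was higher at an unadjusted p under 0.05, of 15 tested.

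Of all 33 members, 31 had a higher mean CPM in APAP_PBS (54.4% of detected genes did), and 2 had a lower one, Cenpa and Plk1 (43.2%). Of the 21 tested, 20 had a log2 fold change above 0 (53.7% of tested genes), with a median of 0.90 beside 0.03 for all tested genes. The filter partly sets these values, since some members passed it only through APAP_PBS. Without the filter, 31 of 33 were above 0, with a median of 0.90 beside 0.06 for all genes. All APAP_PBS libraries were above both CTRL libraries for 11 of 33 members (21.1% of detected genes) and below for 1, Cenpa (18.5%). In any comparison, leaving out a library can only keep or raise a count without overlap. This overlap count was 19 without CTRL replicate 2 and 21 without APAP_PBS replicate 3. The shares of detected genes were not computed for these alternatives. The count of members below was 2 without CTRL replicate 1 and 2 without APAP_PBS replicate 2.

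Mki67 (ENSMUSG00000031004, chr7:135689784-135716361 of GRCm38) was at 1.21 and 1.46 CPM in CTRL, 3.33, 4.55 and 1.93 CPM in APAP_PBS and 0.641, 1.39 and 0.623 CPM in APAP_MSC. The APAP_PBS libraries were all above the other 5, with replicate 3 the lowest of them. Relative to CTRL, the log2 fold change was 1.29 ± 0.45 (SE; edgeR adjusted p = 0.0939).

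Top2a (ENSMUSG00000020914, chr11:98992943-99024189) was at 1.35 and 1.03 CPM in CTRL, 2.88, 4.10 and 1.29 CPM in APAP_PBS and 0.758, 0.984 and 0.584 CPM in APAP_MSC. APAP_PBS replicate 3 was within the CTRL range, so these 2 groups overlapped, and all APAP_MSC libraries were below CTRL. In APAP_PBS against CTRL the log2 fold change was 1.23 ± 0.47 (edgeR adjusted p = 0.126), and without APAP_PBS replicate 3 the adjusted p was 0.0497.

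Aurka (ENSMUSG00000027496, chr2:172356190-172370535), a kinase of the spindle poles, was at 0.712 and 0.705 CPM in CTRL, 1.47, 1.90 and 1.58 CPM in APAP_PBS and 1.75, 1.34 and 1.17 CPM in APAP_MSC. Both CTRL libraries were below all 6 libraries of treated mice, and the treated groups overlapped. Its log2 fold change of APAP_PBS to CTRL was 1.22 ± 0.38 (edgeR adjusted p = 0.0638).

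Smc2 (ENSMUSG00000028312, chr4:52439243-52488260), a core subunit of condensin, was at 1.71 and 3.01 CPM in CTRL, 4.29, 4.89 and 3.45 CPM in APAP_PBS and 3.97, 3.18 and 2.76 CPM in APAP_MSC. APAP_PBS lay above both CTRL libraries, which themselves differed, and APAP_MSC overlapped CTRL. For APAP_PBS against CTRL it had a log2 fold change of 0.81 ± 0.30 (edgeR adjusted p = 0.112).

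Birc5 (ENSMUSG00000017716, chr11:117849251-117855743), survivin of the chromosomal passenger complex, was at 0.285 and 0.0470 CPM in CTRL, 0.395, 0.538 and 0.585 CPM in APAP_PBS and 0.350, 0.492 and 0.389 CPM in APAP_MSC. The CTRL values rest on 4 counts and 1 count. Both treated groups were above CTRL, with a log2 fold change of 1.73 ± 0.77 in APAP_PBS (edgeR adjusted p = 0.173).

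Cdk1 (ENSMUSG00000019942, chr10:69335146-69352938) was at 0.783 and 1.17 CPM in CTRL, 2.09, 2.19 and 0.994 CPM in APAP_PBS and 1.05, 1.39 and 1.09 CPM in APAP_MSC. APAP_PBS replicates 1 and 2 stood above the rest, and replicate 3 lay among the CTRL and APAP_MSC values. The log2 fold change of APAP_PBS to CTRL was 0.83 ± 0.43 (edgeR adjusted p = 0.245).

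Foxm1 (ENSMUSG00000001517, chr6:128362967-128376146), a transcription factor of this gene set, was at 0.214 and 0.376 CPM in CTRL, 0.565, 0.662 and 0.409 CPM in APAP_PBS and 0.175, 0.224 and 0.350 CPM in APAP_MSC. In CPM the APAP_PBS libraries were above all others by a small margin. In FPKM they were not: APAP_MSC replicate 1 was at 0.140, above APAP_PBS replicates 1 (0.130) and 3 (0.091). These levels rest on 3 to 16 counts, and the log2 fold change to CTRL was 0.84 ± 0.62 (edgeR adjusted p = 0.427).

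Ccnb1 (ENSMUSG00000041431, chr13:100778650-100786570), the main mitotic cyclin, held 4 and 4 counts in CTRL, 5, 11 and 4 in APAP_PBS and 5, 0 and 0 in APAP_MSC. It did not pass the filter on low counts, and the groups overlapped. Without the filter edgeR called it in no comparison, so at these counts a difference between groups was not shown.

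4 further members were singled out after their values were seen, for a pattern unlike the others or for their separation between the treated groups. Cenpa (ENSMUSG00000029177, chr5:30666777-30674830) was at 3.13 and 3.48 CPM in CTRL, 1.41, 2.11 and 1.75 CPM in APAP_PBS and 1.69, 2.997 and 1.56 CPM in APAP_MSC. All treated libraries were below CTRL, with APAP_MSC replicate 2 close to it. Its log2 fold change of APAP_PBS to CTRL was -0.90 ± 0.34 (edgeR adjusted p = 0.114).

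Mad2l1 (ENSMUSG00000029910, chr6:66535390-66547220), a member with many counts, was at 3.35 and 3.43 CPM in CTRL, 4.18, 3.77 and 3.16 CPM in APAP_PBS and 4.02, 2.55 and 3.35 CPM in APAP_MSC. The 3 groups overlapped. The log2 fold change of APAP_PBS to CTRL was 0.13 ± 0.26 with a 95% interval of -0.44 to 0.69 (edgeR adjusted p = 0.804).

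Ccna2 (ENSMUSG00000027715, chr3:36564865-36572150), cyclin A2, was at 0.783 and 0.564 CPM in CTRL, 1.86, 1.20 and 0.760 CPM in APAP_PBS and 0.175, 0.492 and 0.350 CPM in APAP_MSC. Bub1b (ENSMUSG00000040084, chr2:118598211-118641591), the checkpoint protein BubR1, was at 0.641 and 0.611 CPM in CTRL, 1.36, 0.994 and 1.17 CPM in APAP_PBS and 0.466, 0.671 and 0.389 CPM in APAP_MSC. For both genes all APAP_MSC libraries lay below all APAP_PBS libraries. Their log2 fold changes of APAP_PBS to CTRL were 0.93 ± 0.55 and 0.90 ± 0.45 (edgeR adjusted p = 0.308 and 0.233).

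**Figure D5:**
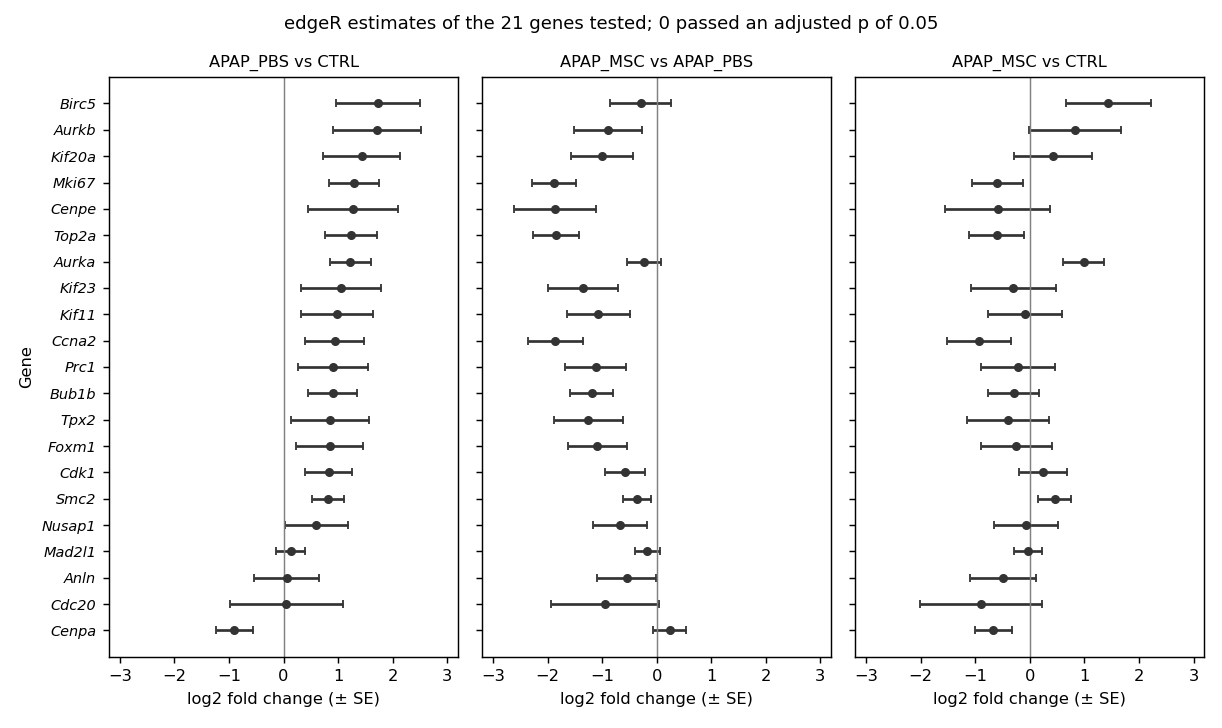
Log2 fold change of each tested member (horizontal axis) with its standard error from edgeR, in the 3 comparisons. Most points are above 0 for APAP_PBS against CTRL (20 of 21) and below 0 for APAP_MSC against APAP_PBS (20 of 21), and none passed an adjusted p of 0.05. Some of these members passed the filter on low counts only through APAP_PBS.

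The comparison of APAP_MSC with APAP_PBS asks what MSC injection changed in injured liver. Mki67, Top2a, Ccna2 and Bub1b had lower levels in every APAP_MSC library than in any APAP_PBS library, but no member passed edgeR's test: 0 of 21 were higher, against 0% of all genes, and 0 were lower, against 0.00786% (1 gene of 12722). At an unadjusted p under 0.05, 0 members were higher (2.92% of all genes) and 5 were lower (Mki67, Top2a, Ccna2, Bub1b and Cenpe; 3.7%). Of these, Cenpe passed the filter only through APAP_PBS. DESeq2 called 1 member, Mki67, with an adjusted p of 0.0201, beside 17 genes higher and 24 lower among the 12722 in that fit, and limma on log2(FPKM + 1) called 0. This comparison uses the same APAP_PBS libraries as the one with CTRL, so the opposite signs are not separate observations.

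Of all 33 members, 32 had a lower mean CPM in APAP_MSC (52.2% of detected genes did). The exception was Cenpa (46.6% of detected genes had a higher mean). Of the 21 tested, 1 had a log2 fold change above 0 (48.7% of tested genes), with a median of -1.01 beside -0.01 for all tested genes. The filter partly sets these values too. Without it, 2 of 33 were above 0, with a median of -1.11 beside -0.01 for all genes. Without APAP_PBS replicate 2 the members' median was -0.70. All APAP_MSC libraries were below all APAP_PBS libraries for 8 of 33 (6.67% of detected genes), and above for 0 (5.6%). The 8 were Mki67, Top2a, Ccna2, Bub1b, Foxm1, Cenpe, Ncapg and Cenpf. In FPKM these groups were separated for 10 members, and not for Foxm1 and Cenpe. The count in CPM was 18 without APAP_PBS replicate 3 and 13 without either APAP_PBS replicate 1 or APAP_MSC replicate 1. Cenpe, a kinetochore motor, is among the 8 by a margin smaller than 1 count, since both groups held a library with 3 counts.

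The log2 fold change of Mki67 was -1.89 ± 0.40 (SE; edgeR adjusted p = 0.378), that of Top2a -1.84 ± 0.42 (adjusted p = 0.451) and that of Ccna2 -1.86 ± 0.50 (adjusted p = 0.567). Bub1b was at -1.19 ± 0.40 (adjusted p = 0.696). Foxm1 was at -1.09 ± 0.54 (adjusted p = 0.767) and Cdk1 at -0.59 ± 0.37 (adjusted p = 0.807). For Aurka the log2 fold change was -0.23 ± 0.30, with a 95% interval of -0.90 to 0.43 (edgeR adjusted p = 0.907). Birc5 was at -0.29 ± 0.56, Smc2 at -0.36 ± 0.26, Mad2l1 at -0.17 ± 0.23 and Cenpa at 0.24 ± 0.31. The value of Cenpa was -0.13 without APAP_MSC replicate 2. Ncapg, a condensin subunit that was not tested, held 7, 14 and 5 counts in APAP_PBS and 0, 2 and 2 in APAP_MSC. Cenpf held 5, 15 and 2 counts in APAP_PBS and 0, 1 and 0 in APAP_MSC.

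The comparison of APAP_MSC with CTRL shows how far the treated liver lay from control. No member passed: 0 of 21 were higher in edgeR's test (2.52% of all genes) and 0 lower (3.32%; 5.84% in either direction). DESeq2 also called 0 (519 genes higher and 698 lower in all), as did limma on log2(FPKM + 1) (498 higher and 207 lower in all). At an unadjusted p under 0.05, 1 was higher (Aurka; 10.6% of all genes) and 0 were lower (11.1%). Of all 33 members, 9 had a higher mean CPM than CTRL (50.3% of detected genes) and 24 a lower one (46.5%). The libraries did not overlap for 2 members that were higher, Aurka and Birc5 (14.5% of detected genes), and for 5 that were lower (15.1%). Leaving out CTRL replicate 2 moved these counts to 15 with a higher mean and 7 without overlap above. The count below was 12 without CTRL replicate 1 and 10 without APAP_MSC replicate 1, and the count above was 4 without CTRL replicate 1 and 5 without APAP_MSC replicate 3. Of the 21 tested, 6 had a log2 fold change above 0 (51.2% of tested genes), with a median of -0.24 beside 0.01 for all.

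Against CTRL, the log2 fold change of Aurka was 0.99 ± 0.38 (edgeR adjusted p = 0.158) and that of Birc5 was 1.44 ± 0.77 (adjusted p = 0.311). Cenpa was at -0.67 ± 0.33 (adjusted p = 0.273), Mki67 at -0.59 ± 0.47 (adjusted p = 0.514) and Top2a at -0.61 ± 0.50 (adjusted p = 0.529). Cdk1 was at 0.24 ± 0.43, Smc2 at 0.45 ± 0.30, Mad2l1 at -0.04 ± 0.26 and Foxm1 at -0.24 ± 0.66, none past the threshold. These libraries also enter the other 2 comparisons.

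Of 65 further genes of G2 and mitosis, 42 were tested, and 2 rose and 2 fell in APAP_PBS against CTRL at an adjusted p of 0.05 in edgeR. These counts are near the background of 4.29% higher and 5.97% lower among all tested genes. Zwint, a kinetochore protein, rose from 48.1 to 86.2 CPM (log2 fold change 0.84 ± 0.21, adjusted p = 0.0341), and Ccnf, cyclin F, from 14.7 to 22.3 CPM (0.60 ± 0.17, adjusted p = 0.0424). Spc24, a kinetochore subunit, fell from 8.21 to 4.23 CPM (-0.95 ± 0.19, adjusted p = 0.0116), and Pttg1, securin, from 19.1 to 12.9 CPM (-0.56 ± 0.14, adjusted p = 0.0278). The median log2 fold change of the 42 tested was 0.63, beside 0.03 for all genes. The filter on low counts may partly set this median, as it does for the members. It was not computed without the filter.

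Of 51 genes of G1, S phase and DNA replication, 49 were tested, and 5 rose (Cdc6, Mcm5, Mcm6, Uhrf1 and Chaf1a) and 1 fell (Rrm2), beside the same background of 4.29% higher and 5.97% lower. Mcm6, a subunit of the replicative helicase, rose from 5.26 to 12.1 CPM (1.22 ± 0.20, edgeR adjusted p = 0.00483). Mcm5, of the same helicase, rose from 1.06 to 3.23 CPM (1.60 ± 0.36, edgeR adjusted p = 0.0190). Uhrf1, which maintains DNA methylation at replication, rose from 0.189 to 1.34 CPM (2.76 ± 0.65, edgeR adjusted p = 0.0222). Rrm2, a subunit of ribonucleotide reductase, fell from 10.2 to 2.13 CPM (-2.25 ± 0.36, edgeR adjusted p = 0.00444). The list's median was 0.41.

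Of 43 regulators of the cycle, 42 were in the table and 39 were tested, with 1 that rose (Gadd45b, a stress-induced gene, from 1.43 to 5.25 CPM, 1.91 ± 0.38, edgeR adjusted p = 0.0106) and 1 that fell (Anapc13, an APC/C subunit, from 16.1 to 10.4 CPM, -0.62 ± 0.15, edgeR adjusted p = 0.0262). The list's median was -0.02. Cdkn1a, the p21 inhibitor of cyclin-dependent kinases, was at 2.84 ± 0.621 CPM in CTRL and 30.9 ± 3.60 CPM in APAP_PBS (SD, n = 2 and 3). Its log2 fold change of 3.47 ± 0.98 did not pass (edgeR adjusted p = 0.0879), and its level in APAP_MSC was 15.9 ± 14.5 CPM.

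In APAP_MSC against APAP_PBS, edgeR called 0 genes of these 3 lists, with medians of -0.25, -0.21 and -0.01. The filter may also partly set the first of these medians, that of the further G2 and mitosis genes. The genes with the smallest adjusted p were Kif22, a chromokinesin (0.856 to 0.196 CPM, -2.09 ± 0.51, adjusted p = 0.530), Pola1, a DNA polymerase alpha subunit (5.16 to 3.37 CPM, -0.62 ± 0.21, adjusted p = 0.696), and Btg2, an antiproliferative gene (28.2 to 13.2 CPM, -1.09 ± 0.30, adjusted p = 0.696). Against CTRL, where 2.52% of all genes were higher and 3.32% lower, APAP_MSC had Spc24 (-1.17 ± 0.19, edgeR adjusted p = 0.00710) and Rrm2 (-1.97 ± 0.35, adjusted p = 0.0107) lower. Mcm6 (0.96 ± 0.20, adjusted p = 0.0208) and Anapc5, an APC/C subunit (0.48 ± 0.11, adjusted p = 0.0297), were higher.

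Markers of other cells were read from the same libraries. All 10 hepatocyte markers were detected in every library, with summed levels of 97528 to 133922 CPM. The 10 markers of monocytes and macrophages summed to 115 and 180 CPM in CTRL, 258, 150 and 159 CPM in APAP_PBS and 119, 165 and 170 CPM in APAP_MSC. These sums overlapped between groups, but 2 of the 10 markers rose in APAP_PBS against CTRL in edgeR's test, Ccr2 and Cd68. Among all tested genes, 4.29% rose. Ccr2, the chemokine receptor of recruited monocytes, was at 1.07 and 1.36 CPM in CTRL, 7.29, 3.89 and 2.69 CPM in APAP_PBS and 1.17, 1.21 and 1.25 CPM in APAP_MSC. APAP_PBS was thus above all other libraries for Ccr2, which was singled out after its values were seen. Other markers of the list, such as Adgre1 and Csf1r, overlapped between the groups. In APAP_MSC against APAP_PBS, 0 of the 10 passed, and their median log2 fold change was -0.45.

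Neutrophil markers summed to 18.2 and 2.21 CPM in CTRL, 24.0, 14.0 and 5.26 CPM in APAP_PBS and 11.8, 4.25 and 3.62 CPM in APAP_MSC. Of the 18.2 CPM in CTRL replicate 1, 15.3 CPM was Ltf, lactoferrin. 2 of the 6 neutrophil markers tested rose in APAP_PBS against CTRL, beside 4.29% of all tested genes. The list median was 2.56 on the log2 scale. In APAP_MSC against APAP_PBS 0 of 6 passed edgeR's test, and the median was -1.35. At an unadjusted p under 0.05, 3 were lower, beside 3.7% of all genes. The filter on low counts partly sets both medians. Retnlg, for example, reached its minimum of 0.511 CPM only in APAP_PBS libraries. The neutrophil medians have the same signs as those of the members. So do the medians of the monocyte and macrophage, stellate, cholangiocyte and erythroid lists, so the signs are not particular to neutrophil markers. Ly6g was at 0 in 7 of 8 libraries.

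Cholangiocyte markers summed to 85.1 and 50.9 CPM in CTRL, 73.7, 80.1 and 93.6 CPM in APAP_PBS and 58.6, 52.5 and 55.0 CPM in APAP_MSC, with every APAP_PBS library above every APAP_MSC library. 1 of 5 tested rose in APAP_PBS against CTRL, beside 4.29% of all tested genes. In APAP_MSC against APAP_PBS 0 of 5 passed edgeR's test, and the median was -1.002, beside -1.01 for the members. At an unadjusted p under 0.05, 2 were lower, beside 3.7% of all genes. Markers of erythroid cells summed to 133 to 137 CPM in CTRL, 62.4 to 89.9 CPM in APAP_PBS and 49.3 to 96.0 CPM in APAP_MSC, and Gata1 was at 0 in all 8 libraries. These sums were mostly Alas2, at 136 and 130 CPM in CTRL, and do not stand for the list. Of the 4 tested in APAP_PBS against CTRL, 2 had a log2 fold change above 0 and 1 fell in edgeR's test. Among all tested genes, 5.97% fell. The list median was 1.02. Hba-a1, a haemoglobin gene, was higher in every APAP_PBS library than in either CTRL library, and Hbb-bt, another, overlapped. Summed markers of Kupffer cells spanned 176 to 302 CPM, of endothelial cells 197 to 323 CPM, of stellate cells 227 to 254 CPM, of B cells 5.59 to 13.5 CPM and of T and NK cells 0.583 to 4.23 CPM over the 8 libraries. Markers of MSCs, which stromal cells of the liver also express, spanned 229 to 328 CPM. Those sums were mostly Cxcl12, at 165 to 255 CPM, and do not stand for the list. Thy1, another of its markers, was at 0.234 to 0.760 CPM. The part of any of these cell types in the members' levels was not tested. On the first principal component of all tested genes, APAP_MSC replicate 2 lay at -14.4, on the side of CTRL (-46.1 and -54.5), while the other treated libraries lay between 13.5 and 34.3.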

How the data were processed

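Liver poly(A) RNA was sequenced in 8 samples, grouped by title (2 CTRL, 3 APAP_PBS, 3 APAP_MSC). The authors deposited estimated counts and FPKM (fragments scaled to gene length and library size) for 22183 genes, per the file headers. The submitters' processing notes name fastp 0.18.0; the sources used here name no aligner, quantifier, build or annotation. Between 6.39% and 7.46% of the deposited estimated counts per sample are not whole, and they were rounded. Symbols came from GENCODE M21 (GRCm38), for 22128 IDs, and coordinates are of that build. Promoters are RefSeq windows of GRCm38.p6.

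Genes passing filterByExpr (12722 of 16660 detected) were scaled with TMM and fitted with edgeR 4.0.16 in R 4.3.3 (robust glmQLFit, glmQLFTest, 1 coefficient per group over 8 samples), with Benjamini-Hochberg adjustment over all tested genes and a threshold of 0.05. The standard error is the log2 fold change divided by the root of F. DESeq2 1.42.0 and limma 3.58.1 on log2(FPKM + 1), which understates changes of low genes, were alternatives. The fit was tested on simulated counts.

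Libraries held 16261191 to 24516470 counts. Replicates differed beyond counting noise. Full values were given for Mki67, Top2a, Cdk1, Ccnb1, Foxm1 and members called in an alternative, and for up to 4 genes of each further list with the smallest adjusted p, of which some are given by count. The members and lists were chosen with earlier results of these data known.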

Additional observations from a re-analysis of the deposited data

How the results depend on the processing

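In APAP_PBS against CTRL, the 0 members called higher became 3 with library size alone (Mki67, Aurka, Smc2, beside 1620 genes higher and 371 lower in all). The count was 1 with log2(FPKM + 1) in limma (Aurka), filtered (1188 higher and 326 lower in all) or not (722 and 248). It was 2 with log2(FPKM + 0.1) (Aurka, Birc5), beside 1366 higher and 332 lower in all and a median of 0.26 for all genes. It was 0 to 1 when single treated libraries were left out (Top2a without APAP_PBS replicate 3, beside 301 genes higher and 374 lower in all). With the replicate number as a block the count was 1 (Mki67, beside 333 higher and 460 lower in all); same-numbered libraries correlated at -0.147 to 0.186, over 0.1 in 2 of 7 pairs, and 3 of 8 libraries correlated best with their own number, so the numbers are not shown to pair samples. In APAP_MSC against APAP_PBS, DESeq2 called 1 lower (Mki67, beside 17 higher and 24 lower in all) and leaving out libraries called 0.

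The counts of direction and overlap, and their alternatives, were added after seeing the data. A count without overlap can only stay or rise when a library is left out. The shares of all detected genes were not computed under these alternatives. With library size alone, 17 members had all APAP_PBS libraries above CTRL and 4 had all APAP_MSC libraries above CTRL. With FPKM, 3 members had a higher mean in APAP_MSC than in APAP_PBS. In FPKM 15 members had all APAP_PBS libraries above CTRL, and 10 had all APAP_MSC libraries below APAP_PBS. Leaving out single libraries gave, for APAP_PBS against CTRL, 13 to 21 members all above, 1 to 2 all below and 26 to 32 with a higher mean. For APAP_MSC against APAP_PBS it gave 11 to 18 all below and 1 to 2 with a higher mean. For APAP_MSC against CTRL it gave 3 to 7 all above, 6 to 12 all below and 9 to 15 with a higher mean. Summed CPM ranged over 19.1 to 22.6 in CTRL, 29.5 to 37.8 in APAP_PBS and 18.5 to 20.3 in APAP_MSC.

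With 10 counts as the detection limit, 20 members were near it in CTRL, 6 in APAP_PBS and 16 in APAP_MSC. Of the log2 fold changes of the 21 tested members, 35 values under an alternative had the opposite sign. These were 3 in APAP_PBS against CTRL (Anln, Cdc20), 3 in APAP_MSC against APAP_PBS (Anln, Cenpa) and 29 in APAP_MSC against CTRL (Anln, Foxm1, Kif11, Kif20a, Kif23, Mad2l1, Nusap1, Prc1, Tpx2). Among the members described in full, signs turned for Cenpa in APAP_MSC against APAP_PBS (-0.13 without APAP_MSC replicate 2), and against CTRL for Mad2l1 in APAP_MSC (0.15 with library size alone, 0.12 without APAP_MSC replicate 2) and Foxm1 in APAP_MSC (0.012 with log2(FPKM + 1), filtered or not, 0.043 with log2(FPKM + 0.1), 0.27 without CTRL replicate 2). With single libraries left out these log2 fold changes ranged over -0.13 to 0.41, -0.20 to 0.12 and -0.58 to 0.27. The cause was not tested. Without the filter on low counts, edgeR tested all 33 members and called 0. 12 members had more than 3 counts in all 8 libraries.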

Other observations

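The deposited FPKM of a gene was not always proportional to its deposited count. The ratio of FPKM to CPM was compared between the 8 libraries for genes with at least 1 count in each. Over 12483 tested genes its highest value was a median of 1.05 times its lowest, and it exceeded 2 times for 3.81% of them. Among the 23 members with a value it exceeded 2 times for 6: Cenpe (4.78), Pbk (3.84), Foxm1 (3.54), Anln (3.38), Prc1 (3.07) and Plk1 (2.49). For Mki67, Top2a, Aurka and Bub1b the ratio varied by 1.01 times or less, so that counts and FPKM give the same relative levels for them. The 6 members were singled out after their values were seen, and the cause was not tested.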
